A study of Mus musculus with 24 samples.

Results

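Genes of the extracellular matrix and its proteases were followed through mouse tissue-resident macrophages (TRMs) that were either sorted directly from an organ or grown from that organ in culture. The set comprised 100 of the 45706 gene identifiers in the count table, of which 21519 were protein coding. The members are those whose names the rule lists, and no measured value enters it. They were the collagen chains (Col), matrix metalloproteinases (Mmp), their tissue inhibitors (Timp1 to Timp4), ADAMTS proteases and lysyl oxidases (Lox, Loxl1 to Loxl4), together with Dcn, Lum, Pdgfra, Msln and Upk3b, which mark fibroblasts and mesothelium. By role there were 11 fibrillar collagens, 9 network or basement membrane collagens, 9 FACIT collagens (fibril-associated collagens with interrupted triple helices), 9 beaded filament or anchoring collagens, 6 transmembrane collagens or multiplexins, 15 secreted and 7 membrane-bound MMPs, 19 ADAMTS proteases, 5 lysyl oxidases, 4 TIMPs and the 5 markers. The remaining member, Col4a3bp, encodes a ceramide transfer protein and only its symbol fits the naming pattern. No read was counted for 4 members (Adamts18, Adamts19, Col22a1 and Mmp20) in any library.

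The study asked how closely macrophages expanded in vitro resemble the cells of their organ of origin. RNA was sequenced from 24 libraries in 8 groups of 3, all from female C57BL/6J mice of 8 to 12 weeks. The 4 ex vivo groups were microglia (MG), Kupffer cells (KCs), peritoneal macrophages (PMs) and alveolar macrophages (AMs), isolated by flow sorting on CD45 and CD11b, with F4/80 and TIM-4 added for KCs, F4/80 and CD115 for PMs and SiglecF for AMs. The 4 in vitro groups were the cultures named MG-LCs, KC-LCs, PM-LCs and AM-LCs. They were seeded with unsorted cell suspensions of the same organs and grown for 14 days in flasks coated with polyethylenimine. MG-LCs, KC-LCs and PM-LCs were kept at 3% oxygen with M-CSF at 20 ng/mL, joined in MG-LCs by IL-34 at 20 ng/mL, whereas AM-LCs were kept in atmospheric oxygen with GM-CSF at 20 ng/mL. A flask took cells from 3 mice for MG-LCs, PM-LCs and AM-LCs and from 1 mouse for KC-LCs. Liver and lung were digested with collagenase before sorting or plating, and the cultures were not sorted again, so that an in vitro library could contain any adherent cell of the organ. The medium of AM-LCs was without glucose, whereas MG-LCs, KC-LCs and PM-LCs had high glucose. Where growth factor, oxygen or glucose differed between organs, their part cannot be told apart from that of the organ.

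The extracellular matrix is a mesh of collagens, glycoproteins and proteoglycans made mostly by fibroblasts and other mesenchymal cells. Its chains are cross-linked by lysyl oxidases and cut by MMPs and ADAMTS proteases, and TIMPs block these proteases. Macrophages are known less for making matrix than for remodelling it: they secrete elastase and collagenases and take up the fragments. Fibrillar collagen, decorin and lumican are standard signs of fibroblasts, so a member may be read in a macrophage library either from the macrophages or from stromal cells carried with them. In bulk RNA, fewer cells of a type and less RNA per cell cannot be told apart.

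Of the members, 9 MMP genes lie within 427.1 kb on chromosome 9 (chr9:7272514-7699585, GRCm38), in the order Mmp13, Mmp12, Mmp1b, Mmp3, Mmp10, Mmp8, Mmp27, Mmp20 and Mmp7. The cluster holds both the proteases that were most abundant in the macrophages and those that were abundant in single cultures. The 100 bases before the start of 5 of them are given below because they differ in one motif, present in 4 of them and absent from the window of Mmp8, the letters TGAGTCA or its reverse complement TGACTCA, which are the classic site of the AP-1 transcription factor. The sequences are from RefSeq (GRCm38.p6, plus strand), with the match in capitals, and for Mmp12 the second of its 2 annotated starts is shown, since the 100 bases before the first hold no match.
Mmp13, chr9:7272414-7272513: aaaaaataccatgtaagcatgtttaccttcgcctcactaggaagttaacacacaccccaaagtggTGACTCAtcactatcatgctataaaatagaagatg
Mmp12, chr9:7347274-7347373: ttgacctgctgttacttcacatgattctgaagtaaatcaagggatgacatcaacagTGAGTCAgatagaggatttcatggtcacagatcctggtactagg
Mmp3, chr9:7445722-7445821: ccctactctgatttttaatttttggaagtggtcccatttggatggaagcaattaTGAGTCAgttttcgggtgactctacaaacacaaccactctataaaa
Mmp10, chr9:7502242-7502341: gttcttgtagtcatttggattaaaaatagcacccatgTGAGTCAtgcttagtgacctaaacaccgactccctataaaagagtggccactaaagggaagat
Mmp8, chr9:7558329-7558428: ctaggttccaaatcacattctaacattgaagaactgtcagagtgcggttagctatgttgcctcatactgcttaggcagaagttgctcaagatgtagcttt
The letters were found in 1709 of all 32851 promoter windows of 300 bases in the table (5.2%), counted from 250 bases before to 50 bases after the start. Of the members, 69 had 75 windows in the table, and 7 of these windows (9.33%) held the letters. They belonged to Col6a1 and to 6 of the 9 genes of the cluster, namely Mmp13, Mmp12, Mmp1b, Mmp3, Mmp10 and Mmp7. Mmp8 had no match in its window. A match describes the sequence and is not evidence that a factor binds there.

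Libraries held between 29569486 and 47105111 counted reads (median 35965750), and levels are given in CPM, read counts scaled to a common depth after normalization over all 24 libraries, where 3 reads correspond to 0.066 to 0.115 CPM. A sum of 25 fibroblast, mesothelial and smooth muscle genes that are not members was used to read stromal content. It was 2355, 27.5 and 287 CPM in MG-LC libraries 1, 2 and 3, 13.8, 5.06 and 15.2 in KC-LCs, 34.3, 1619.6 and 379 in PM-LCs and 32.6, 146 and 998 in AM-LCs. The richest library of MG-LCs (library 1), PM-LCs (library 2) and AM-LCs (library 3) held 19, 22 and 20 of the 25 genes at 1 CPM or more. Sorted AMs had 1036 to 1192 CPM and sorted MG 140.4 to 155 CPM of this sum, of which Krt19 supplied 918 to 1057 and Ccdc80 103 to 122 CPM in AMs and Upk1b 116 to 132 CPM in MG, while only 5 and 3 to 4 of the 25 genes reached 1 CPM there. Sorted KC library 1 stood apart from the other two. Its Adgre1 (F4/80) level was 673 CPM against 2606 and 2744 CPM, and the neutrophil genes S100a8 and S100a9 were highest in it (60.7 and 56.1 CPM). Sorted KCs also held Cdh5, an endothelial gene, at 139 to 318 CPM, but Tie1, Emcn and Cldn5 did not exceed 0.0815 CPM. The endothelial list, which also holds Kdr, summed to 158, 231 and 318 CPM in sorted KC libraries 1, 2 and 3.

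In the sorted macrophages, at least 5 CPM in all 3 libraries was reached by 22 of the 100 members in at least 1 population (13 in MG, 10 in KCs, 8 in PMs, 7 in AMs). The share of all genes at this level was not counted. Summed over all members, MG held 1239.8 to 1256 CPM, KCs 682 to 1182, PMs 2716 to 3363 and AMs 489 to 507. In the cultures the sum was 4150.3 to 50314 CPM in MG-LCs, 3997 to 5686 in KC-LCs, 21891 to 24267 in PM-LCs and 28701 to 33834 in AM-LCs, higher in each culture than in any sorted library. The heat map of members by library shows the sorted profiles on the left and, on the right, a block of collagens that is high in single cultures.

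**Figure D1:**
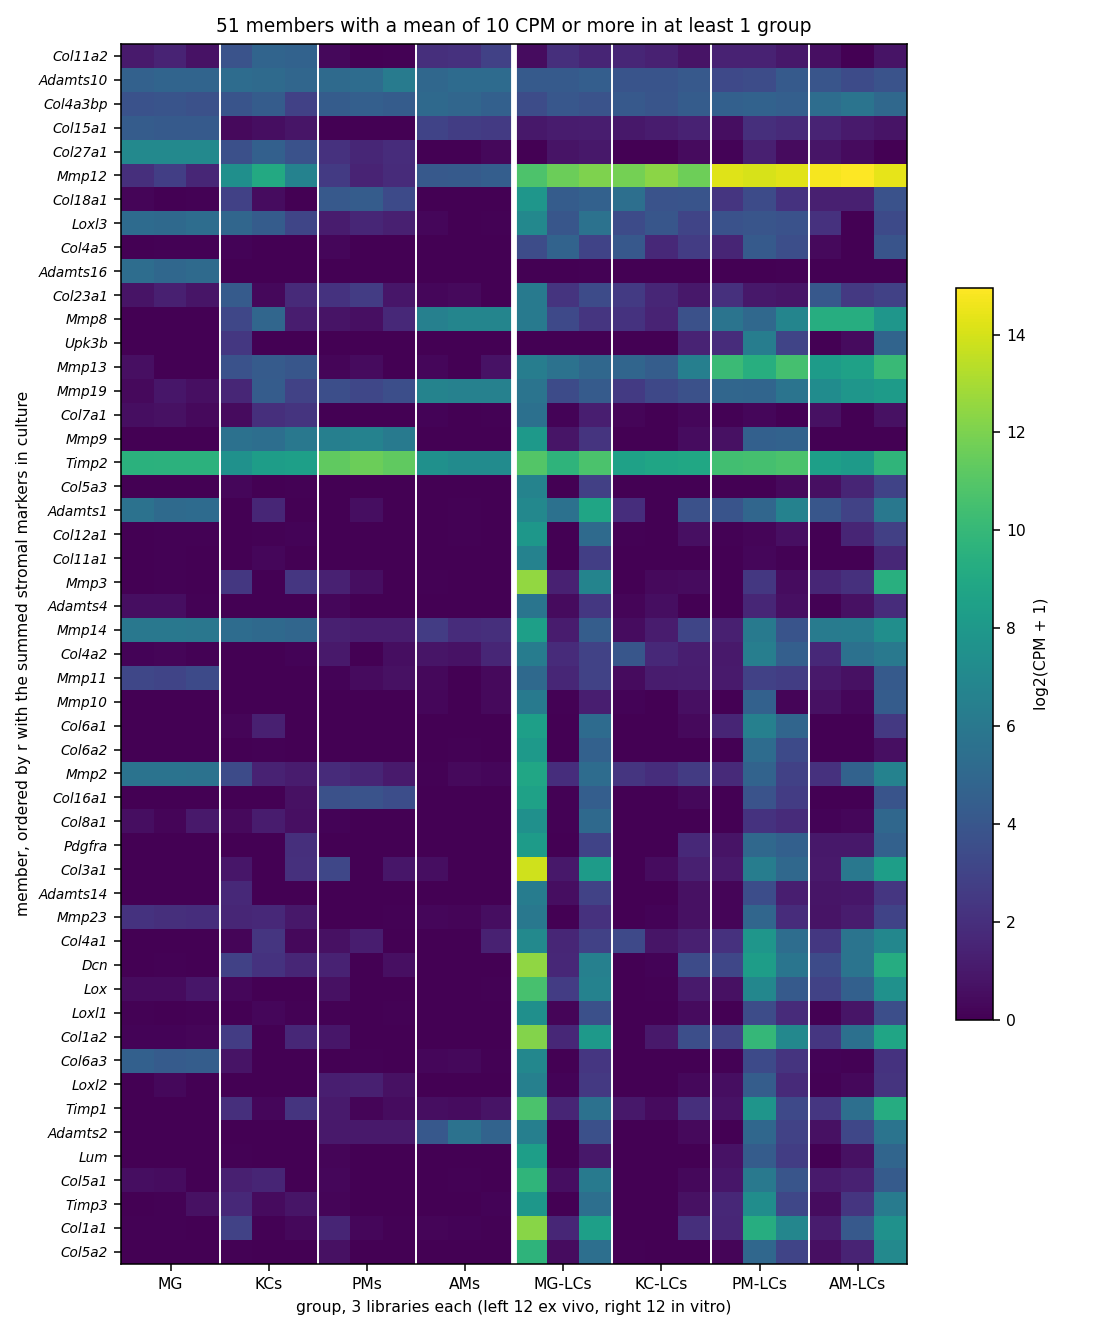
Heat map of the 51 members with a mean of at least 10 CPM in a group (rows) in the 24 libraries (columns, 3 per group, ex vivo left and in vitro right), coloured by log2(CPM + 1) and ordered from the lowest to the highest correlation with the stromal marker sum in culture. The lower rows, from the collagens to Col5a2, are bright in MG-LC library 1, PM-LC library 2 and AM-LC library 3, whereas Mmp12 is bright in all 12 cultures.

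Timp2, a secreted inhibitor that also takes part in the activation of MMP2, was the only TIMP expressed at a high level in the sorted cells. It measured 760.4, 774 and 789 CPM in MG, 188, 319 and 339.9 CPM in KCs, 2481, 3133 and 2577 CPM in PMs and 183, 149.6 and 149 CPM in AMs. PMs lay above the 9 other sorted libraries and MG above KCs and AMs, whereas the lowest KC library (188 CPM) and the highest AM library (183 CPM) were nearly level. Timp2 made up 91.4% to 93.2% of the summed member CPM in PMs and 60.7% to 62.8% in MG. Per kilobase of exon it was the most abundant member in MG (199 CPM per kb), KCs (72.4) and PMs (701), and in AMs Mmp8 (42.5 CPM per kb), Timp2 (41.2) and Mmp19 (27.2) led. Against the mean of the other sorted populations, Timp2 was higher in PMs (log2 fold change 3.08 ± 0.15 (SE), adjusted p = 4.37e-08) and lower in AMs (log2 fold change -2.38 ± 0.20 (SE), adjusted p = 1.8e-06). The other inhibitors were scarce, with Timp1 at most 3.68 CPM and Timp3 at most 2.26 CPM in any sorted library and Timp4 at or below 0.431 CPM in all 24 libraries.

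Sorted MG expressed collagens, an ADAMTS protease and genes of pericellular proteolysis. Col27a1, a fibrillar collagen best known from cartilage, measured 129, 128 and 129 CPM in MG, 11.5, 22.9 and 12.8 CPM in KCs, 2.07 to 3.37 CPM in PMs and at most 0.249 CPM in AMs. The 3 MG libraries differed by less than 1 CPM and lay far above all others (log2 fold change 6.30 ± 0.36 (SE), adjusted p = 7.25e-08). Adamts16, a secreted ADAMTS protease, was read at 39.7, 31.5 and 34.6 CPM in MG, and no read was counted in sorted KCs, PMs or AMs. Col15a1, a multiplexin of the basement membrane zone, measured 19.7, 17.6 and 18.0 CPM in MG and 6.99, 5.57 and 4.87 CPM in AMs, with 1 read in all PM libraries together, and was called higher in MG. Genes of pericellular proteolysis were high in MG as well. Mmp14, the membrane-anchored MMP that activates MMP2, measured 63.0, 63.6 and 60.3 CPM in MG and 37.6, 33.2 and 30.1 CPM in KCs, and both groups lay above PMs and AMs (log2 fold change 3.44 ± 0.17 (SE), adjusted p = 2.39e-08 for MG, log2 fold change 2.32 ± 0.17 (SE), adjusted p = 1.11e-06 for KCs). Mmp2 itself (gelatinase A) was present at 51.0, 51.3 and 48.4 CPM in MG (log2 fold change 5.42 ± 0.51 (SE), adjusted p = 4.19e-06). Loxl3, a lysyl oxidase, measured 36.8, 33.3 and 40.1 CPM in MG and 29.0, 19.7 and 7.87 CPM in KCs (log2 fold change 4.64 ± 0.37 (SE), adjusted p = 1.04e-06 for MG). Col6a3, a chain of beaded filament collagen VI, stood at 18.4 to 22.9 CPM and Adamts1 at 47.8, 34.8 and 36.2 CPM. In MG, 17 of 52 tested members were called higher than the mean of the other sorted populations (edgeR, with the adjusted p below 0.05 and a change of more than 1.5 on the log2 scale), against 14.1% of all genes, and 5 were called lower, against 12.3%. The 5 lower members were Mmp8, Timp1, Mmp19, Mmp12 and Col20a1.

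Among the secreted MMPs, Mmp12, Mmp13 and Mmp27 were higher in sorted KCs than in every other sorted library. Mmp12, macrophage elastase, measured 172, 547 and 98.8 CPM in KCs, 17.2, 17.6 and 20.7 CPM in AMs, 3.04, 5.87 and 2.03 CPM in MG and 4.88, 1.77 and 2.52 CPM in PMs. KCs lay above all other sorted libraries, with wide spread among themselves (log2 fold change 5.55 ± 0.44 (SE), adjusted p = 1.86e-06), AMs came next, and MG and PMs overlapped. Mmp13, collagenase 3, was read at 12.4, 18.3 and 15.2 CPM in KCs and at most 0.646 CPM in any other sorted library (log2 fold change 6.22 ± 1.01 (SE), adjusted p = 0.000556). Mmp9, gelatinase B, measured 47.6, 40.9 and 61.5 CPM in KCs and 86.2, 97.6 and 71.7 CPM in PMs, and 0 reads were counted in MG and AMs. Mmp27, an MMP of the same cluster, measured 5.33, 6.77 and 3.94 CPM in KCs and at most 0.468 CPM elsewhere among the sorted cells. Col11a2, a chain of the minor fibrillar collagen XI, was at 13.5, 27.1 and 25.4 CPM (log2 fold change 4.84 ± 0.48 (SE), adjusted p = 1.24e-05). The neutrophil list moved with some of these values, since its sum was 131, 83.0 and 1.57 CPM in the KC libraries. Mmp8 followed it only in part, at 8.10, 29.8 and 1.26 CPM, whereas Mmp9 was highest in library 3, where S100a9 was at 0.114 CPM. Of 52 tested members, 24 were called higher in KCs (background 14.6%) and 3 lower (3.50%). Without KC library 1 the number called higher was 18. In library 1, Dcn measured 6.36 CPM and Col1a1 6.77 CPM, against 3.53 and 2.00 CPM for Dcn and 0.0778 and 0.228 CPM for Col1a1 in libraries 2 and 3. Other stromal members peaked in library 3, with Col3a1 at 0.842, 0 and 3.19 CPM in libraries 1, 2 and 3. Pdgfra was at 3.02 CPM in library 3 and at 0 in libraries 1 and 2. B cell genes summed to 49.0, 28.1 and 62.0 CPM and hepatocyte genes to 199, 78.0 and 92.7 CPM in sorted KC libraries 1, 2 and 3. The part of RNA from stromal cells, neutrophils or other cell types in the 24 calls was not tested.

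Sorted PMs and AMs each expressed a short list. Besides Timp2 and Mmp9, PMs were called higher for Col16a1, a FACIT collagen (12.0, 13.4 and 10.8 CPM), and Col18a1, the multiplexin that yields endostatin (17.2, 19.4 and 9.16 CPM). Loxl2 and Mmp17 completed the 5 largest and did not exceed 1.53 CPM and 2.17 CPM. In PMs, 10 of 52 tested members were called higher (background 10.6%) and 8 lower (6.06%), which are shares of 19.2% and 15.4%. AMs stood out by Mmp8, collagenase 2, at 90.2, 109 and 109.6 CPM, and Mmp19, a widely expressed MMP, at 102, 92.4 and 93.1 CPM. Both were above every other sorted library (Mmp19, log2 fold change 4.69 ± 0.43 (SE), adjusted p = 4.67e-06). The call for Mmp8 had adjusted p = 6.77e-06, and its size cannot be given because MG held a single read. Mmp8 is best known from neutrophils. Of the neutrophil genes in sorted AMs, Ly6g was at 0 reads, S100a9 at 0.102 to 0.224 CPM and S100a8 at 5.73 to 7.86 CPM. Adamts2, a procollagen N-proteinase, varied among the AM libraries (16.3, 49.5 and 26.2 CPM). For AMs, 7 of 52 members were called higher (background 10.2%) and 13 lower (13.1%), and among the lower ones were Mmp28, Col27a1, Dcn, Col18a1 and Loxl3. The 4 comparisons of one sorted population with the others use the same 12 libraries. In 19 of the 52 members at least 1 sorted group had no read. For such members the mean of log levels has no lower limit, and between 2 and 5 of them per comparison could therefore not be called whatever their level.

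In culture, Mmp12 became the dominant member. It measured 1731, 3045 and 4259 CPM in MG-LCs, 3626, 5142 and 3265 CPM in KC-LCs, 19171, 16756 and 20153 CPM in PM-LCs and 27043, 31741 and 21969 CPM in AM-LCs. Every culture lay above every sorted library of its organ, and the order of the cultures was AM-LCs, PM-LCs, then KC-LCs and MG-LCs, which overlapped. Mmp12 came to 2.20% to 3.17% of normalized reads in AM-LCs and 1.68% to 2.02% in PM-LCs. These are shares of the depth after normalization, not of the counted reads. It accounted for 76.5% to 94.2% of the member sum in AM-LCs, 74.0% to 87.6% in PM-LCs and 81.7% to 90.4% in KC-LCs. In MG-LCs its share ran from 3.44% to 73.4%. Sorted cells were lower in all 4 organs. Ex vivo over in vitro, the log2 fold change was -9.73 ± 0.78 (SE) for MG, adjusted p = 0.00087, and -3.86 ± 0.67 for KCs, adjusted p = 0.00514. For PMs it was -12.58 ± 0.55, adjusted p = 2.63e-05, and for AMs -10.51 ± 0.25, adjusted p = 4.97e-06.

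**Figure D2:**
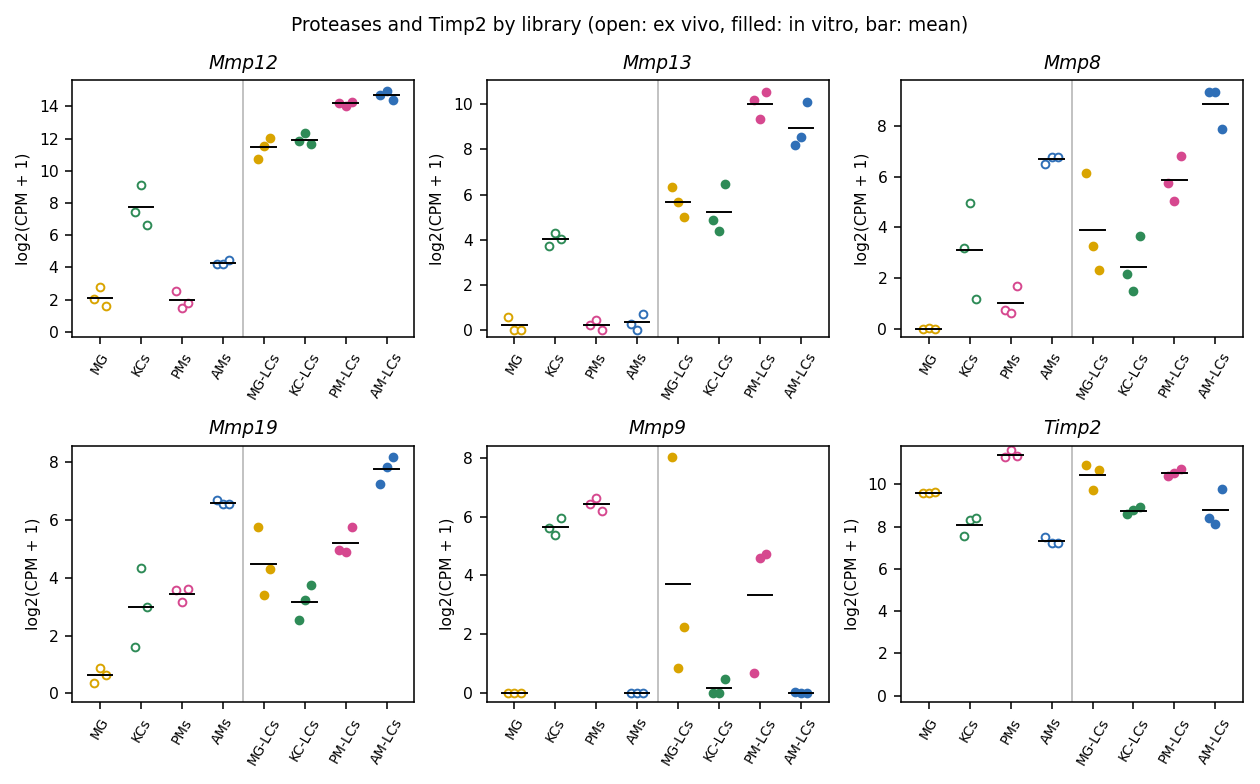
Levels of Mmp12, Mmp13, Mmp8, Mmp19, Mmp9 and Timp2 in each library (y axis, log2(CPM + 1)) for the 4 sorted (open circles) and 4 cultured groups (filled circles), with a bar at the mean of 3 libraries. Mmp12 lies between 1731 and 31741 CPM in all cultures and at or below 547 CPM in all sorted libraries, whereas Timp2 lies above 149 CPM in all 24 libraries.

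Collagenases followed Mmp12 with clear differences between organs. Mmp13 measured 1154, 659.9 and 1491 CPM in PM-LCs, 297, 378 and 1117 CPM in AM-LCs, 79.7, 49.7 and 31.5 CPM in MG-LCs and 28.0, 19.9 and 87.4 CPM in KC-LCs. PM-LCs and AM-LCs overlapped, as did MG-LCs and KC-LCs, and the first pair lay above the second. It was lower ex vivo in MG (log2 fold change -8.28 ± 1.42 (SE), adjusted p = 0.00627), PMs (log2 fold change -12.60 ± 0.90 (SE), adjusted p = 0.000132) and AMs (log2 fold change -11.04 ± 1.09 (SE), adjusted p = 0.000323). In KCs, which already expressed Mmp13 when sorted, the difference did not pass the test (log2 fold change -1.53 ± 0.55 (SE), adjusted p = 0.0636). Mmp8 reached 639.6, 642 and 234 CPM in AM-LCs and 53.5, 32.3 and 110.5 CPM in PM-LCs. Its lowest AM-LC library still exceeded the highest sorted AM library (log2 fold change -2.28 ± 0.35 (SE), adjusted p = 0.0019), and the PM-LC libraries exceeded sorted PMs (log2 fold change -5.79 ± 0.76 (SE), adjusted p = 0.00164). In MG-LCs Mmp8 spread from 3.97 to 69.7 CPM against 1 read in all sorted MG libraries, a ratio of means of 3048 with a counting interval of 547 to 120375. S100a8 was 33.2, 91.8 and 82.4 CPM in AM-LCs with Ly6g at 0 reads. The neutrophil list summed to 35.7, 93.8 and 86.7 CPM there, against 6.49 to 8.48 CPM in sorted AMs. By edgeR, S100a8 (log2 fold change -3.33, adjusted p = 0.00075) and Ngp (-3.30, adjusted p = 0.0343) were called lower ex vivo in AMs. Ltf did not pass (-2.76, adjusted p = 0.127). The part of neutrophil RNA in Mmp8 was not tested. Mmp19 measured 152, 227 and 289.9 CPM in AM-LCs, above sorted AMs but under the fold threshold (log2 fold change -1.24 ± 0.25 (SE), adjusted p = 0.00591), and it was called lower ex vivo in MG (log2 fold change -5.65 ± 0.85 (SE), adjusted p = 0.00434) and PMs (log2 fold change -1.89 ± 0.32 (SE), adjusted p = 0.00489). Mmp27 was counted at 0 in sorted MG, so that MG-LCs (1.39, 1.14 and 1.43 CPM) were at least 16.3-fold higher. In the KC lineage it ran the other way, higher when sorted (log2 fold change 2.61 ± 0.60 (SE), adjusted p = 0.0136), a call lost without KC-LC library 1 or 2.

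Mmp9 went down where it had been present in KCs, and Timp2 stayed high throughout. Mmp9 fell from 40.9 to 61.5 CPM in sorted KCs to 0, 0 and 0.403 CPM in KC-LCs (log2 fold change 8.56 ± 1.16 (SE), adjusted p = 0.0021). In PM-LCs it was at 0.614, 23.0 and 25.4 CPM, all below the sorted PM libraries, but library 1 stood apart and the difference missed the threshold (log2 fold change 2.37 ± 1.00 (SE), adjusted p = 0.119). In MG-LCs the values were 257, 0.796 and 3.74 CPM. Timp2 measured 1951, 852 and 1653 CPM in MG-LCs, 381, 437 and 480.0 CPM in KC-LCs, 1356, 1477 and 1669.7 CPM in PM-LCs and 343, 282 and 891 CPM in AM-LCs. Only in AMs was it called, lower ex vivo (log2 fold change -1.69 ± 0.45 (SE), adjusted p = 0.0186), and without AM-LC library 3 that fold change was -0.94, within the fold threshold. The call was also lost without any 1 sorted AM library. For PMs the log2 fold change was 0.86, adjusted p = 0.0112, in the opposite direction, with every sorted library above every culture. Per kilobase the leading members were Mmp12 (3719 CPM per kb), Timp1 (245), Mmp13 (224) and Mmp8 (208) in AM-LCs, Mmp12 (2583), Mmp13 (412) and Timp2 (385) in PM-LCs, and Mmp12 (554) and Timp2 (111) in KC-LCs. The place of Timp1 rests on AM-LC library 3, without which Timp1 was at 26.5, Mmp13 at 126 and Mmp8 at 264 CPM per kb.

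A different set of members was abundant in single cultures. For 40 members the highest library of a culture group reached at least 5 CPM and was at least 10 times the middle library. This occurred for 34 members in MG-LCs, 17 in AM-LCs, 6 in PM-LCs and 2 in KC-LCs. The share of all genes with this pattern was not counted, so these numbers do not set the members apart from other genes. By contrast, 11 members were even in at least 1 culture group (at least 5 CPM in all 3 libraries, with the highest at most 4 times the lowest), and 10 of these 11 also reached 5 CPM in a sorted group. Shares of all genes were not counted for these either. Of the 40, 33 were neither even in any culture nor at 5 CPM in sorted cells. They include Col1a1, Col1a2, Col3a1, Col5a1, Col5a2, Col4a1, Col4a2, Lox, Timp1, Timp3, Mmp3, Mmp10, Dcn, Lum, Pdgfra, Msln and Upk3b. Their summed level was 23.3 CPM in the lowest and 43552 CPM in the highest MG-LC library, which is 0.561% and 86.6% of the member sum, while in sorted MG it was 8.52 to 8.99 CPM. In PM-LCs it ran from 33.4 to 3277 CPM, in AM-LCs from 42.7 to 3663 CPM and in KC-LCs from 6.03 to 40.6 CPM.

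Col1a1, the main chain of collagen I, illustrates the pattern. It measured 5086, 2.09 and 344 CPM in MG-LCs, 2.07, 649 and 117 CPM in PM-LCs, 1.18, 17.3 and 192 CPM in AM-LCs and 0, 0 and 3.05 CPM in KC-LCs. Col3a1, the collagen of reticular fibres, was at 14986, 0.946 and 299.8 CPM in MG-LCs and 1.01, 62.7 and 338 CPM in AM-LCs. Dcn (decorin, a proteoglycan on collagen fibrils) measured 5589, 2.14 and 91.6 CPM in MG-LCs, 8.11, 318 and 55.1 CPM in PM-LCs and 9.70, 52.2 and 609 CPM in AM-LCs. In each case the high library was the one with the most stromal marker RNA, and the libraries of a group spread over orders of magnitude, so that a group mean describes none of them. Timp1, the inducible inhibitor, followed the same libraries at 1666, 1.97 and 47.3 CPM in MG-LCs, 0.678, 226 and 8.71 CPM in PM-LCs and 4.21, 42.8 and 607 CPM in AM-LCs. Mmp3, stromelysin 1, measured 5898, 1.64 and 107 CPM in MG-LCs and 2.02, 3.28 and 692 CPM in AM-LCs but only 0.0323, 4.27 and 0.430 CPM in PM-LCs.

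Across the 12 cultures, the log2 CPM of Col1a1 correlated with that of the stromal sum at r = 0.956, Col5a2 at 0.958, Timp1 at 0.936, Dcn at 0.919 and Mmp2 at 0.855. For Mmp12, Col4a5, Loxl3, Mmp8 and Mmp13 the values were 0.175, 0.231, 0.228, 0.444 and 0.479. Timp2 came between, at 0.666. These correlations are descriptions over 12 libraries that share 1 normalization, and the few stromal-rich libraries set most of the range. Of the 59 members with at least 5 CPM in some culture, 29 had r above 0.8 and 11 had r between -0.5 and 0.5. Shares over all genes were not counted for these limits either. The mesothelial marker Upk3b, at 0.458, was among the 11. Msln was at 0.6, against 0.941 for Lum and 0.904 for Pdgfra, so a low r does not by itself set a member apart from the stromal ones. The highest culture was MG-LC library 1 for 42 of the 59. Within the chromosome 9 cluster, r was 0.175 for Mmp12, 0.479 for Mmp13, 0.444 for Mmp8, 0.763 for Mmp3 and 0.845 for Mmp10. Mmp12, with the AP-1 letters 44 bases before its second start and none before its first, and Mmp13, with the letters at 35 bases, were read in all cultures, while Mmp3 and Mmp10, with the letters 46 and 63 bases before theirs, followed the stromal-rich libraries in MG-LCs. Mmp8, without the letters, was read in all 12 cultures at 1.82 CPM or more.

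**Figure D3:**
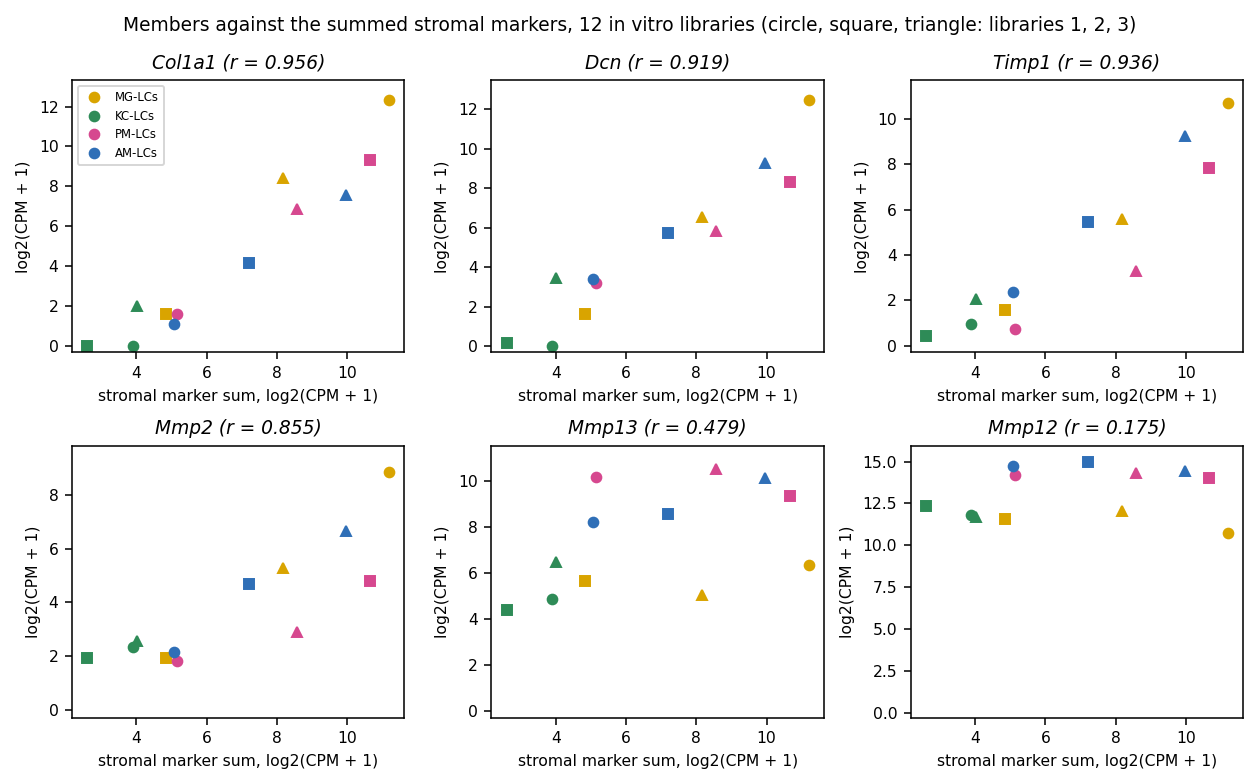
Levels of 6 members (y axis, log2(CPM + 1)) against the sum of 25 stromal markers that are not members (x axis, log2(CPM + 1)) in the 12 cultures, coloured by organ with a symbol for each library number. Col1a1, Dcn, Timp1 and Mmp2 climb with the stromal sum (r from 0.855 to 0.956), whereas Mmp12 (r = 0.175) and Mmp13 (r = 0.479) are higher in PM-LCs and AM-LCs than in MG-LCs and KC-LCs at low and high stromal sums.

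Levels and ratios of stromal members differed between the stromal-rich cultures. Upk3b, a mesothelial gene, measured 2.68, 80.3 and 7.44 CPM in PM-LCs and 0.0327, 0.343 and 26.7 CPM in AM-LCs, with 0 reads in MG-LCs. Msln (mesothelin) was at 1.00, 25.9 and 1.14 CPM in PM-LCs and 0, 1.98 and 15.4 CPM in AM-LCs. Both were highest in the stromal-rich library of their group. Lum (lumican), a fibroblast proteoglycan, measured 339, 0 and 0.971 CPM in MG-LCs, 0.646, 19.8 and 5.67 CPM in PM-LCs and 0, 0.611 and 28.5 CPM in AM-LCs. Pdgfra, a growth factor receptor of fibroblasts and glial progenitors, was at 289, 0 and 7.20 CPM in MG-LCs and 0.711, 32.8 and 23.5 CPM in PM-LCs. The ratio of Col3a1 to Col1a1 was 2.95 in MG-LC library 1, 1.76 in AM-LC library 3 and 0.121 in PM-LC library 2. Mmp3 over Col1a2 was 1.26 in MG-LC library 1, 1.60 in AM-LC library 3 and 0.00425 in PM-LC library 2. Ratios also differed between cultures of one organ, with Col3a1 over Col1a1 at 0.871 in MG-LC library 3 and Mmp3 over Col1a2 at 0.0725 in AM-LC library 2. Des, a muscle and pericyte gene, was at 0.840, 349 and 79.7 CPM in PM-LCs and 1.93, 0 and 0.143 CPM in MG-LCs. Brain markers summed to 100.3, 4.40 and 45.2 CPM in MG-LCs. Each of these is 1 library, and the differences were not tested.

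The comparison of sorted cells with their cultures put most called members on the culture side in 3 of the 4 organs. In MG, 52 members were tested, 27 were called higher in vitro (background 16.4% of all genes) and 6 higher ex vivo (13.5%). In PMs 27 of 45 were higher in vitro (10.2%) and 1 higher ex vivo (7.57%), and in AMs 30 of 41 (12.9%) and 4 (8.62%). KCs went the other way, with 4 of 36 higher in vitro (7.62%) and 9 higher ex vivo (14.7%). Calls over all genes in KCs leaned to the sorted cells as well (2005 against 1039). The direction of this split therefore does not by itself set the members apart from other genes. The members' median log2 fold change, ex vivo over in vitro, came to -5.04 (MG), 1.16 (KCs), -4.81 (PMs) and -7.68 (AMs), or -4.49 in MG and -5.41 in AMs with members lacking reads in a group set to their limit. Over all genes tested it lay between -0.037 and 0.009. limma-voom called 7, 9 and 14 higher in vitro in MG, PMs and AMs. The edgeR counts also depended on single libraries. The 27 calls in MG became 8, 7 and 8 without sorted library 1, 2 or 3 and 45 without MG-LC library 2, and the 27 in PMs became 11 without any 1 of the sorted libraries. Of the higher ex vivo counts, 6 in MG became 3 without any 1 sorted library, 9 in KCs became 3 without KC-LC library 2, 1 in PMs became 3 and 4 without PM-LC library 1 and 2, and 4 in AMs became 2, 1 and 2 without sorted library 1, 2 or 3 and 7 without AM-LC library 3.

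By role, the fibrillar collagens were called higher in vitro for 5 of 7 tested in MG, 5 of 8 in PMs and 7 of 8 in AMs, and for none of 4 in KCs (edgeR, with 0 lower ex vivo at an unadjusted p under 0.05). The network collagens were higher in vitro for all 5 tested in MG, all 3 in PMs, both in AMs and 2 of 5 in KCs. Over all genes the shares were 16.4%, 10.2%, 12.9% and 7.62%. In sorted cells the network collagens summed to at most 3.72 CPM in MG, 3.07 in PMs, 3.63 in AMs and 8.23 in KCs. The fibrillar collagens summed to at most 131 CPM in MG, where Col27a1 had a mean of 129 CPM, 15.3 in PMs, 6.86 in AMs and 52.3 in KCs. Single fibrillar chains were near absent, with Col1a2 at 0 reads and Col5a2 at 1 read in sorted AMs. A fibrillar or network chain could therefore pass the filter through its culture alone, and such a chain could hardly be called higher ex vivo. The shares over all genes are not a like measure for such chains, and no conclusion is drawn from the difference. Col4a2, a main chain of basement membrane collagen IV, and Mmp12 were the 2 members called higher in vitro in all 4 organs, although the call for Col4a2 in MG was lost without any 1 sorted MG library. Col4a2 measured 14.7, 2.29 and 1.39 CPM in KC-LCs and 0 to 0.114 CPM in sorted KCs. Col4a5 was called in MG, KCs and PMs and reached 10.3, 26.4 and 6.94 CPM in MG-LCs, where library 2, the poorest in stromal markers, was the highest. A further 14 members were called higher in vitro in 3 organs, among them Col1a1, Col1a2, Col4a1, Col5a1, Dcn, Lox, Mmp8, Mmp13, Timp1 and Timp3. Secreted MMPs were higher in vitro for 6 of 10 in MG, 2 of 10 in KCs, 6 of 10 in PMs and 8 of 10 in AMs. Calls for FACIT collagens differed between organs. edgeR called 0 of 4 in MG and 0 of 3 in PMs, with 0 at an unadjusted p under 0.05 in either organ, 2 of 3 higher ex vivo in KCs, and 2 higher and 1 lower ex vivo of 3 in AMs. Where a sorted group held no reads, bounds can be given. Timp1 was at least 7048-fold higher in MG-LCs than in sorted MG, Dcn at least 2493-fold higher in AM-LCs than in sorted AMs and Upk3b at least 301-fold higher in PM-LCs than in sorted PMs. The stromal-rich library carried each of these means, and without it the bounds were 304-fold, 345-fold and 50.5-fold.

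**Figure D4:**
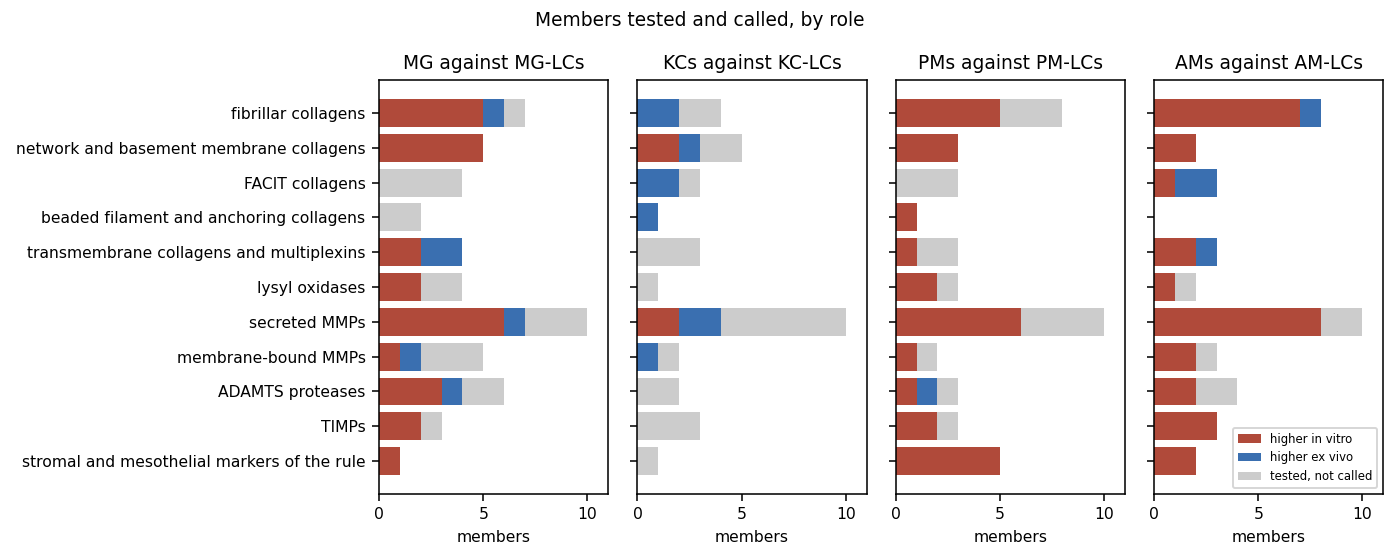
Number of members (x axis) per role (y axis) that were tested and called higher in vitro (red), called higher ex vivo (blue) or not called (grey) in each of the 4 organs. KCs have 4 members called higher in vitro, against 27 in MG, 27 in PMs and 30 in AMs.

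The calls were also made without the culture richest in stromal markers. Without MG-LC library 1, 24 members were called higher in vitro in MG, and 22 of them were among the 27. Adamts4, Col8a1, Loxl2, Mmp17 and Timp3 were lost, and Col4a3 and Mmp9 were gained. Without PM-LC library 2, 23 of the 27 calls were kept, with Col11a2, Col4a2, Mmp14 and Timp1 lost. Without AM-LC library 3, 28 were called, 27 of them among the 30, with Mmp11, Mmp23 and Timp2 lost and Col4a3 gained. The remaining cultures still held stromal markers, at 27.5 and 287 CPM of the sum in MG-LCs, 34.3 and 379 CPM in PM-LCs and 32.6 and 146 CPM in AM-LCs, against 5.10 to 8.05 CPM in sorted PMs. In sorted MG and AMs the sum was 140.4 to 155 and 1036 to 1192 CPM, mostly from Upk1b in MG and Krt19 in AMs. That exceeded MG-LC library 2 for MG and all 3 AM-LC libraries for AMs.

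Some members of sorted MG were low in all 3 MG-LC libraries. Col27a1 fell from 129, 128 and 129 CPM to 0.0257, 0.722 and 0.943 CPM (log2 fold change 7.80 ± 0.96 (SE), adjusted p = 0.00242), with all 3 cultures below 1 CPM. Adamts16 fell to 2 reads in the 3 MG-LC libraries together, a ratio of means of 1852 with a counting interval of 513 to 15295. Col15a1 fell to 0.924, 1.22 and 1.26 CPM (log2 fold change 3.97 ± 0.27 (SE), adjusted p = 0.000672), Mmp28 (epilysin) from 7.73, 8.49 and 5.46 to 1.77, 0.672 and 1.89 CPM (log2 fold change 2.28 ± 0.50 (SE), adjusted p = 0.0135) and Mmp15, a membrane-bound MMP, from 2.86, 4.08 and 4.03 to 1.08, 0.348 and 0.257 CPM (log2 fold change 2.64 ± 0.67 (SE), adjusted p = 0.0211). Mmp28 and Mmp15 missed the threshold when any 1 of the sorted libraries was left out (over all alternatives, adjusted p from 3.03e-05 to 0.0747 and from 0.000411 to 0.0937). Adamts1, a protease of versican and aggrecan, moved up instead, to 127, 46.8 and 448 CPM (log2 fold change -2.43 ± 0.79 (SE), adjusted p = 0.0457), and here MG-LC library 3 was highest. That call was lost without any 1 of the sorted libraries or MG-LC library 3 (over all alternatives, adjusted p from 0.00315 to 0.145).

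Mmp14, Mmp2, Col6a3 and Loxl3, all of them steady in sorted MG, spread widely in MG-LCs. Mmp14 measured 341, 1.24 and 20.4 CPM, Mmp2 458, 2.84 and 37.5 CPM, Col6a3 122, 0 and 4.23 CPM and Loxl3 123, 14.8 and 49.7 CPM. The first culture lay above all sorted MG libraries for each of the 4 and the second below them. No difference passed the test, with log2 fold changes, ex vivo over in vitro, of -1.02, adjusted p = 0.605 for Mmp14, -1.79, adjusted p = 0.345 for Mmp2, -1.11, adjusted p = 0.644 for Col6a3 and -0.82, adjusted p = 0.352 for Loxl3. Without MG-LC library 1 the 4 fold changes turned to 2.48, 1.26, 3.23 and 0.13, none of them called. In MG-LC library 2, which had 27.5 CPM of the stromal sum, Mmp14 was at 1.24 CPM, Mmp2 at 2.84 CPM and Col6a3 at 0 reads, against 60.3 to 63.6, 48.4 to 51.3 and 18.4 to 22.9 CPM in sorted MG.

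**Figure D5:**
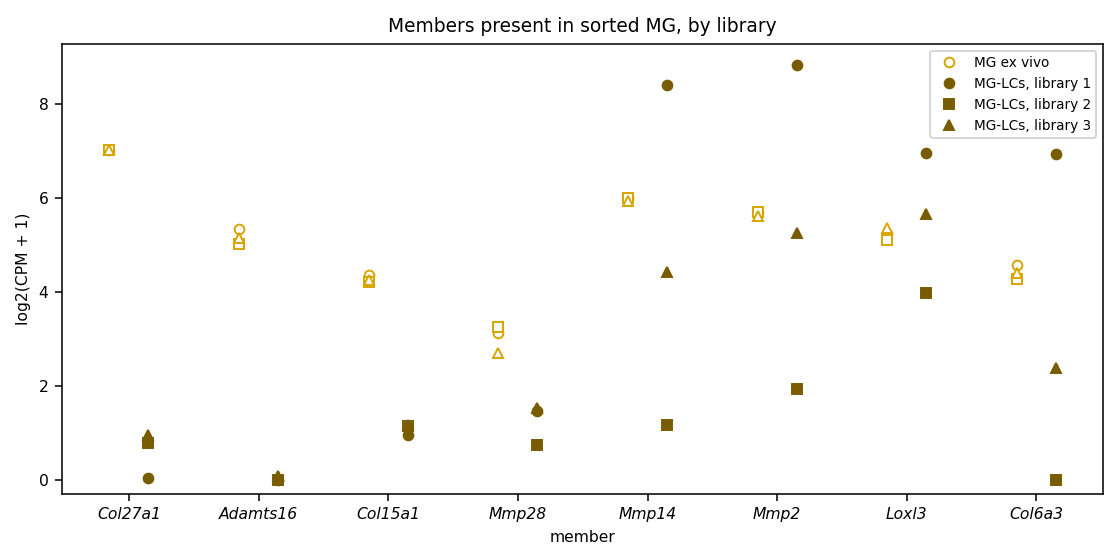
Levels of 8 members (x axis) present in sorted MG (open symbols) and in MG-LCs (filled symbols), as log2(CPM + 1) with a symbol for each library number. Col27a1 and Adamts16 are below 1 CPM in all 3 MG-LC libraries, whereas Mmp14, Mmp2 and Col6a3 are far above the sorted level in library 1 and below it in library 2.

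In the other organs, 9 (KCs), 1 (PMs) and 4 (AMs) members were called higher ex vivo. In KCs, Col27a1 (log2 fold change 7.17 ± 1.37 (SE), adjusted p = 0.00711), Col11a2 (log2 fold change 3.95 ± 0.54 (SE), adjusted p = 0.00225) and Mmp14 (log2 fold change 3.48 ± 0.97 (SE), adjusted p = 0.0278) were higher in the sorted cells, and the call for Mmp14 was lost without sorted library 2 or 3 or KC-LC library 2 (over all alternatives, adjusted p from 0.000236 to 0.102). Col14a1, Col8a1, Col9a3 and Col7a1 were also called, at no more than 5.16 CPM in any KC library. In AMs, Col15a1 (log2 fold change 2.23 ± 0.43 (SE), adjusted p = 0.00512), Col14a1 (log2 fold change 3.88 ± 1.03 (SE), adjusted p = 0.0179), Col11a2 and Col20a1 were higher ex vivo, with Col14a1 at 2.63, 2.48 and 2.73 CPM in sorted cells. The call for Col11a2 was lost without any 1 sorted AM library or AM-LC library 1. Mmp14 was higher in AM-LCs, at 73.8, 75.5 and 165 CPM (log2 fold change -4.85 ± 0.48 (SE), adjusted p = 0.000328), and in PM-LCs, at 1.52, 71.6 and 13.9 CPM (log2 fold change -4.41 ± 1.22 (SE), adjusted p = 0.0327), although in PMs the call was lost without any 1 sorted library or PM-LC library 2 (over all alternatives, adjusted p from 3.17e-05 to 0.256). Adamts10, a protease linked to fibrillin microfibrils, was at 5 CPM or more in all 24 libraries. It was the single member called higher in sorted PMs, at 35.1, 37.9 and 73.6 CPM against 8.98, 10.3 and 17.6 CPM in PM-LCs (log2 fold change 1.99 ± 0.40 (SE), adjusted p = 0.0103), and in AMs it came close to the fold threshold (log2 fold change 1.48 ± 0.21 (SE), adjusted p = 0.00135). Loxl3 was higher in PM-LCs (log2 fold change -3.02 ± 0.35 (SE), adjusted p = 0.000913).

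Between cultures, few members differed. Mmp13 (log2 fold change 3.24 ± 0.49 (SE), adjusted p = 0.0219) and Mmp27 (log2 fold change 2.69 ± 0.34 (SE), adjusted p = 0.0103) were the 2 of 71 tested members called higher in PM-LCs than in the mean of the other cultures, against 0.338% of all genes, with 0 lower (0.0945%), and both calls were lost without PM-LC library 1 or 3. In AM-LCs 6 members were called higher (4.75% of all genes), namely Mmp8 (log2 fold change 4.52 ± 0.75 (SE), adjusted p = 0.00414), Mmp19 (log2 fold change 3.45 ± 0.44 (SE), adjusted p = 0.000964), Mmp12 (log2 fold change 2.16 ± 0.27 (SE), adjusted p = 0.000806), Mmp13 (log2 fold change 2.14 ± 0.50 (SE), adjusted p = 0.0194), Mmp25 and Col9a2, and 0 lower (2.50%). Without AM-LC library 3 there were 3, and Mmp13 was not among them. In MG-LCs 1 member, Mmp12, was called lower (log2 fold change -2.06 ± 0.33 (SE), adjusted p = 0.0457, background 0.122%), and that call was lost in 10 of the 12 fits that each left out 1 culture. No member was called higher in MG-LCs by edgeR, against calls for 0.297% of all genes, and 26 were called without MG-LC library 2 and 21 by DESeq2. An unadjusted p under 0.05 was reached by 43 of 71. In KC-LCs none of 71 was called in either direction by edgeR, with 40 lower and 0 higher at an unadjusted p under 0.05. DESeq2 and limma-voom called 0 higher as well, and of all genes edgeR called 0.0135% higher and 0.0878% lower. Shares of all genes at an unadjusted p under 0.05 were not counted, so the 43 and the 40 have no background.

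The change between sorted and cultured cells was also compared between organs. For 30 of 79 tested members the log2 fold change, ex vivo over in vitro, was higher in KCs than in the mean of the other 3 organs (background 8.86%), and for 0 it was lower (edgeR, with 0 at an unadjusted p under 0.05, background 1.89%, and limma-voom called 1). In MG 2 members were higher and 4 lower (4.49% and 8.75%), in PMs 2 and 5 (4.76% and 3.80%) and in AMs 3 and 7 (5.38% and 6.00%). The 30 calls became 11 and 12 without KC-LC library 1 and 2, and limma-voom made 9. Single libraries also moved the other counts, for MG to 5 higher without MG-LC library 1 and 7 lower without MG-LC library 2, for PMs to 4 higher without sorted KC library 1 and 8 lower without MG-LC library 1, and for AMs to 3 lower without sorted AM library 2 or 3. In the other direction, MG had 1 higher without KC-LC library 3 and 2 lower without MG-LC library 1, sorted AM library 1 or any 1 sorted MG library, and AMs had 1 higher without any 1 sorted AM or AM-LC library. Mmp12 had a difference of 7.05 ± 0.70 (SE), adjusted p = 3.31e-06 for KCs, Mmp13 9.04 ± 1.26 (SE), adjusted p = 9.39e-05 and Loxl3 3.91 ± 1.07 (SE), adjusted p = 0.0185. Fibrillar and other stromal members such as Col1a1, Col3a1, Dcn, Pdgfra and Timp1 were also among the 30, and KC-LCs had the lowest stromal sums of the 4 cultures (5.06 to 15.2 CPM). The part of stromal RNA in these calls was not tested. The 4 comparisons use the same 24 libraries, and 49 of the 79 members had a group without reads, so that some could not be called whatever their level, 13 for KCs against 34 for MG, 23 for PMs and 24 for AMs. The counts of the organs are therefore not on one footing. DESeq2 called 45 higher for KCs, 5 higher and 20 lower for MG, 6 and 13 for PMs and 5 and 20 for AMs.

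Other genes of matrix biology were read from lists of non-members, beside shares over all genes of 16.4% (MG), 7.62% (KCs), 10.2% (PMs) and 12.9% (AMs) called higher in vitro and 13.5%, 14.7%, 7.57% and 8.62% higher ex vivo. Of 19 genes that fold and process collagen, 5 of 15 tested in MG, 3 of 15 in KCs, 3 of 14 in PMs and 8 of 13 in AMs were called higher in vitro, and 2 in KCs (P3h2 and Pcolce2) and 1 in PMs (Plod3) higher ex vivo. Serpinh1, the collagen chaperone HSP47, was at 1892, 0.747 and 77.7 CPM in MG-LCs, the pattern of Col1a1, and P4ha2, a prolyl hydroxylase, at 326, 58.7 and 100.2 CPM. Plod3, a lysyl hydroxylase, was read in every library, and Pcolce2, an enhancer of procollagen processing, was at 109.5, 218 and 246 CPM in sorted KCs and at 0 in KC-LCs. Of 20 further matrix proteins, 9 of 14 tested in MG, 3 of 9 in KCs, 6 of 12 in PMs and 9 of 12 in AMs were higher in vitro. Spp1 (osteopontin), a product of activated macrophages, was called in all 4 organs and reached 25916, 39332 and 49487 CPM in AM-LCs. Fn1 (fibronectin) was among the few higher ex vivo, at 17222, 20692 and 15917 CPM in PMs and 99.2, 652 and 716 CPM in PM-LCs (log2 fold change 5.19 ± 0.74 (SE), adjusted p = 0.00243). Of 12 regulators of matrix proteolysis, 4 of 10 in MG, 3 of 9 in KCs, 3 of 12 in PMs and 4 of 11 in AMs were higher in vitro, Plau (urokinase) and Adam8 in all 4 organs. Of 10 collagen receptors and uptake genes, 3 of 6 in MG, 0 of 5 in KCs (edgeR, with 4 of the 5 at an unadjusted p under 0.05, 3 of them higher ex vivo), 3 of 5 in PMs and 2 of 5 in AMs were higher in vitro. Mrc1, the mannose receptor that takes up collagen, was higher ex vivo in KCs and AMs and lower in MG (-4.27 on the log2 scale). Ctsk (cathepsin K) measured 908, 7926 and 3681 CPM in AM-LCs.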

How the data were processed

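RNA of 24 libraries was sequenced after Nextera XT preparation. The deposited values are raw counts of reads per gene, made by the authors with Trimmomatic and STAR, and the submitters' processing notes name versions 0.36 and 2.5.2b. The paper names other versions of both tools. The genome build also differs between the sources used here, which give a human and a mouse build, while the identifiers are mouse Ensembl genes. Strand setting of the counting is not given in the sources used here, so overlapping genes cannot be told apart. Symbols, positions and exon lengths came from a GRCm38 annotation.

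Groups followed the sample labels, which do not say whether libraries of a group came from separate animals or flasks, and p-values then measure only the spread between these libraries. The main test was edgeR 4.0.16 (R 4.3.3) with TMM normalization, filterByExpr at a minimum count of 10, quasi-likelihood F tests and Benjamini-Hochberg adjustment over all genes tested. A call needed adjusted p under 0.05 and an absolute log2 fold change above 1.5. Sorted cells were compared with the culture of their organ, each sorted or cultured group with the mean of the other 3, and the ex vivo over in vitro change of an organ with the mean of the other 3 organs. CPM used TMM factors over 17408 genes, correlations used log2 CPM with a prior count of 2, and the detection limit was 3 reads. Limits and intervals cover counting error only. Alternatives were limma-voom (limma 3.58.1), DESeq2 1.42.0, other size factors, no filter, a replicate block and leaving out libraries. Members, gene lists and tests were chosen with earlier results of these data known. Named members had a mean of 10 CPM in a group, were among the 5 largest calls of a comparison in a direction, or were TIMPs and the 5 stromal markers. Other named genes came from the fixed lists. Deposited columns all belonged to a sample, and the fit was tested on simulated data.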

Additional observations from a re-analysis of the deposited data

Results flagged for a closer look

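edgeR's test over 24 libraries compared the change between sorted and cultured cells in an organ with the mean change of the other 3 organs. Of its calls, which were 30 for KCs, 6 for MG, 7 for PMs and 10 for AMs, 15 member and organ pairs are described here, chosen after their values were seen. Values are differences of log2 fold changes, ex vivo over in vitro, with SE and adjusted p.

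In KCs the difference was 7.05 ± 0.70 (SE), adjusted p = 3.31e-06 for Mmp12, with sorted KCs at 98.8 to 547 CPM. For Mmp13 it was 9.04 ± 1.26 (SE), adjusted p = 9.39e-05 and for Mmp14 6.84 ± 1.67 (SE), adjusted p = 0.00928. Mmp19 had 3.04 ± 0.74 (SE), adjusted p = 0.00894, Col11a2 4.31 ± 1.15 (SE), adjusted p = 0.0159 and Loxl3 3.91 ± 1.07 (SE), adjusted p = 0.0185. Over 30 alternatives Mmp14 lost its call in 1. The calls were lost for Mmp19 without sorted KC library 2, for Col11a2 without KC-LC library 2 or 3 and for Loxl3 without KC-LC library 1 or 3.

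In MG the difference was 5.47 ± 1.38 (SE), adjusted p = 0.00762 for Col27a1 and -4.62 ± 0.80 (SE), adjusted p = 0.000305 for Mmp19. Col27a1 was called in 29 of 30 alternatives. The exception left out KC-LC library 3, after which KC-LCs held no read of it and the average had no lower limit.

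In PMs it was -4.55 ± 0.65 (SE), adjusted p = 9.05e-05 for Mmp12, -5.68 ± 1.25 (SE), adjusted p = 0.0043 for Mmp13, 1.93 ± 0.41 (SE), adjusted p = 0.00313 for Timp2 and 8.86 ± 1.78 (SE), adjusted p = 0.00209 for Col18a1. The call for Mmp13 was lost without sorted MG library 1. The size for Col18a1 depends on 1 read in all sorted AM libraries together. In AMs it was -1.79 ± 0.60 (SE), adjusted p = 0.0476 for Mmp12, -3.54 ± 1.18 (SE), adjusted p = 0.0445 for Mmp13 and -4.47 ± 1.23 (SE), adjusted p = 0.0158 for Loxl3. Those for Mmp12 and Mmp13 were called in 8 and 12 of 30 alternatives, and that for Loxl3 in 26, with the call lost without sorted AM library 2 or 3 or AM-LC library 3.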

How the results depend on the processing

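Counts of called members depended on the tool and on single libraries more than on the size factors. limma-voom called 7 members higher in vitro in MG, 9 in PMs and 14 in AMs (27, 27 and 30 by edgeR), and 5 higher ex vivo in PMs (1 by edgeR). DESeq2 called 2 higher ex vivo in PMs, 21 higher in MG-LCs and 5 higher in PM-LCs than in the other cultures (1, 0 and 2 by edgeR). Without the filter 46 were higher in vitro in AMs and 12 higher in MG-LCs (30 and 0 with it). With the replicate block, PMs had 2 calls ex vivo and 17 in vitro, and a fold threshold of 1.5 on the linear scale gave 2 higher ex vivo in PMs. The replicate numbers did not pair the libraries, since same-numbered libraries correlated at -0.104 to 0.056. For the differences between organs, limma-voom gave 7 above for MG and 9 above and 1 below for KCs. DESeq2 gave 5 above and 20 below for MG, 6 above and 13 below for PMs, and 5 above and 20 below for AMs. The replicate block gave 2 below for MG, 4 above for PMs and 1 above for AMs. Without the 3 stromal-rich libraries, an alternative chosen after seeing the data, 4 were above for MG and 1 below for KCs. Leaving these libraries out of the lower bounds and the levels per kilobase was likewise chosen after seeing the data. The cause of these shifts was not tested.

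Leaving out 1 library at a time, calls higher ex vivo ranged from 3 to 8 in MG, 3 to 10 in KCs, 1 to 4 in PMs and 1 to 7 in AMs, and calls higher in vitro from 7 to 45, 3 to 6, 11 to 38 and 22 to 38. For the sorted populations the ranges were 15 to 22 in MG, 18 to 25 in KCs, 7 to 12 in PMs and 5 to 8 in AMs, and for the cultures 0 to 26, 0 to 0, 0 to 3 and 3 to 8. Differences between organs ranged from 1 to 5 above and 2 to 7 below for MG, 11 to 38 and 0 to 1 for KCs, 2 to 4 and 4 to 8 for PMs, and 1 to 3 and 3 to 8 for AMs.

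Fold changes that changed sign were those of members with spread or near-zero changes. In MG, limma-voom gave 1.58 for Mmp14, 0.42 for Mmp2 and 3.50 for Col6a3, and the replicate block 1.51, 0.36 and 2.17. Leaving out 1 library gave -1.58 to 2.48 for Mmp14, -2.35 to 1.26 for Mmp2, -1.68 to 3.23 for Col6a3 and -1.27 to 0.13 for Loxl3, the highest values being those without MG-LC library 1. In KCs Mmp19 was -0.23 by limma-voom and -0.29 with the replicate block, and leaving out 1 library gave -0.90 to 0.62 for Mmp19 and -0.26 to 2.30 for Mmp8, lowest without sorted library 2. In AMs Adamts2 ran from -0.055 without AM-LC library 1 to 2.85 without AM-LC library 3. With 3 libraries a group, a member with 0 reads in a group has no bounded fold change.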
